A study of Mus musculus with 10 samples.

Results

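The T-box genes encode transcription factors that bind DNA through a shared domain, the T-box, and set the fate of cells in the embryo. In many adult tissues, the liver among them, most of these developmental regulators are silent and are known targets of the Polycomb system, in which Polycomb repressive complex enzymes place trimethylation on lysine 27 of histone H3 (H3K27me3). The SWI/SNF remodelling complex, which holds Arid1a and the ATPase Brg1, is known to oppose Polycomb at many promoters. Described here are 10 of these genes, Tbx1, Tbx2, Tbx3, Tbx4, Tbx5, Tbx15, Tbx18, Tbx20, Tbr1 and Eomes, out of 21938 protein-coding genes. They were chosen by name, and each was taken with its body and 50 kb on both sides, called its window here. Because the windows of Tbx2 and Tbx4 overlap by 55.53 kb, the 10 genes lie in 9 separate stretches.

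The chromatin came from AB17 cells, C57BL/6 mouse hepatocytes with floxed Arid1a (Arid1a fl/fl) carrying the SV40 large T antigen and an activated H-Ras as immortalizing genes. Ad-GFP, an adenovirus without Cre, was given to the wildtype cells (WT, Arid1a fl/fl), and Ad-Cre, which deletes the floxed gene, to the knockout cells (KO, Arid1a-/-). H3K27me3 and H3K9me3, the mark of constitutive heterochromatin, were profiled by ChIP-seq in both genotypes, and Arid1a, Brg1, the insulator protein Ctcf and the cohesin subunit Rad21 in WT cells alone. All groups were single libraries of 1 transformed cell line, which leaves every difference without replicates and without a p-value.

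Each peak list gave the summit of a peak and its strength, the −log10 of a q-value, with nothing under 1.3. Strength grows with depth, so beside a comparison of strengths between genotypes the rank within the list is the firmer measure. Summits of H3K27me3 numbered 109601 in WT against 86050 in KO cells, a KO to WT ratio of 0.785. Read depth is unknown, and unequal depth or antibody yield cannot be told apart from an effect of genotype. Intervals on ratios of counts are exact 95% binomial intervals and those on shares are Wilson intervals. Both cover counting error only. No expression was measured, so the labelled cell type could be checked on chromatin alone. Of 13 hepatocyte marker genes, 6 had a WT H3K27me3 summit within 2 kb of their start, among them Hnf4a, Foxa1 and Cebpa, and 3 had one in KO cells. Of 13 marker genes of other liver cells, 5 had one in WT and 4 in KO cells. Over all protein-coding genes the share was 23.4% in WT and 19.8% in KO cells.

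To address how much Polycomb mark the T-box genes carried, summits were first counted in the windows. WT cells had from 5 summits at Tbr1 to 52 at Tbx4. A summit was found in all 10 windows in both genotypes. Of all 21938 protein-coding genes, 15064 had one in WT and 13415 in KO cells. Expressed per length, the median over the 10 genes was 17.0 WT summits per 100 kb, against 2.76 for all protein-coding genes. The corresponding KO medians were 13.3 and 1.51. At least 10 summits in WT and KO cells together were found at 9 of the 10 genes, and at 42.8% of all protein-coding genes. The gene below that minimum was Tbr1.

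The genes fell into a densely and a thinly marked group. Tbx4 led with 40.1 WT summits per 100 kb, and Tbx3 had 31.6. Tbx5 with 22.9, Tbx1 with 20.1 and Tbx2 with 19.2 came next. Their counts of 35, 22 and 21 in windows of unlike length gave densities too close to be ordered from 1 library each. Eomes had 14.8 and Tbx20 10.9 WT summits per 100 kb. Tbx15, Tbx18 and Tbr1 had 4.68, 4.67 and 4.50, which were again too close to be ordered. The KO order was led by Tbx3 with 28.1 and Tbx1 with 25.5 summits per 100 kb, and Tbr1 with 1.80 and Tbx15 with 1.87 stood last.

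**Figure D1:**
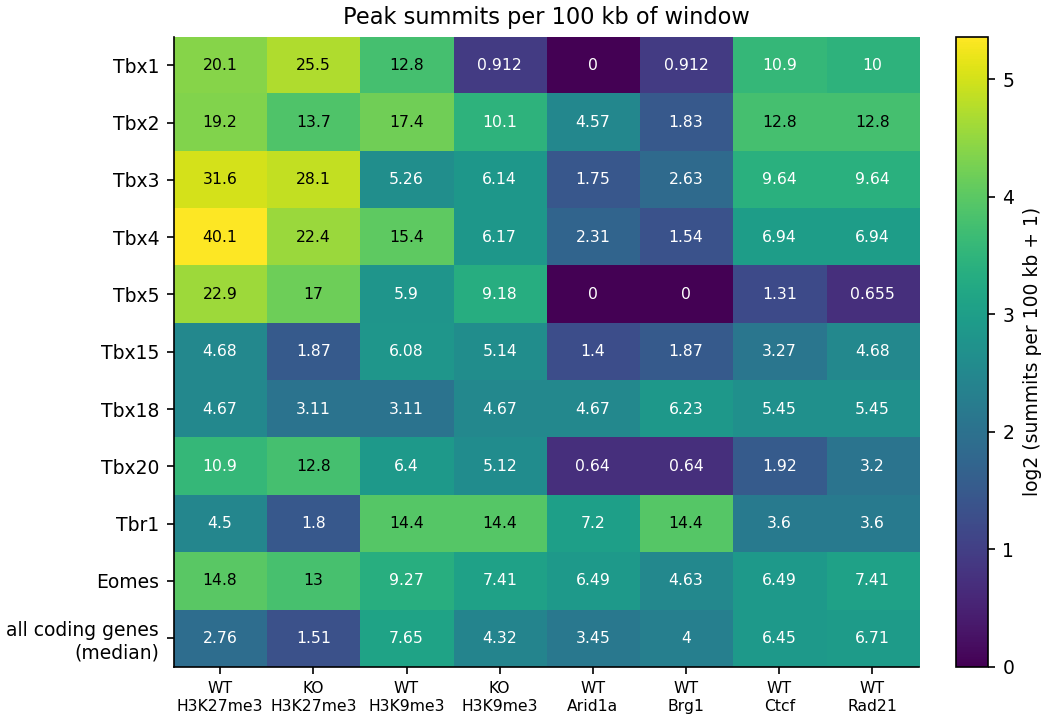
Peak summits per 100 kb of window for each T-box gene (rows) in each of the 8 lists (columns), with the median over all protein-coding genes in the last row. Colour is log2 of the value plus 1, and the number in each cell is the value itself. WT H3K27me3 ran from 4.50 at Tbr1 to 40.1 at Tbx4, while Tbx5 had no Arid1a and no Brg1 summit.

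A count of summits is not a level of the mark. Where a domain is broad, narrow-peak calling lists many summits along it, and weak ones dominated here. In the windows of the 10 genes, the 115 WT summits with a strength under 3 had a median distance of 1375 bp to the nearest other summit. For the 10 summits of at least 10 the median distance was 5872 bp, and the shortest 702 bp. The whole WT list showed the same order, with 1400 and 3854 bp. For this reason the strongest summit of each gene is given beside its count. A WT summit of at least 10 lay in the windows of 5 genes, against 20.0% of all protein-coding genes, and a KO summit of that strength in 5, against 14.8%.

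Next, H3K27me3 was compared between genotypes. Over the 9 stretches 202 summits were listed in WT and 161 in KO cells. The ratio was 0.797 (0.644 to 0.985), next to 0.785 for the whole lists, and it was 0.994 when an equal number of the strongest peaks was taken from each list. Fewer summits in KO than in WT cells were counted at 8 of the 10 genes, against 72.4% of all protein-coding genes with a summit. That count was 5 of 10 under each of 3 other settings, namely summits of at least 3, summits of at least 5 and lists of equal size. The pooled ratio of the T-box genes was thus close to that of the whole lists.

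Gene by gene, KO cells had fewer summits by 1.5 times or more at 3 of the 9 genes with at least 10 summits, Tbx4, Tbx15 and Tbx18, against 39.5% of all protein-coding genes. None of the 9 was higher in KO cells by 1.5 times or more, against 4.56%. The median ratio of the 9 genes was 0.743, and that of all 9380 protein-coding genes with at least 10 summits was 0.75. Tbx4 was the gene whose interval excluded a ratio of 1, with 52 WT and 29 KO summits and a ratio of 0.558 (0.341 to 0.895). That interval still held the 0.785 of the whole lists. The ratio of Tbx4 was nearer to 1 under 4 other settings, at 0.784 with lists of equal size, 0.727 at a strength of at least 3, 0.762 with a window of 10 kb and 0.733 after merging, and was then no longer past 1.5 times. Without Tbx4, the other 9 genes had 168 and 145 summits and a ratio of 0.863 (0.686 to 1.08). The part of the Tbx4 window that overlaps the Tbx2 window was still counted there.

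**Figure D2:**
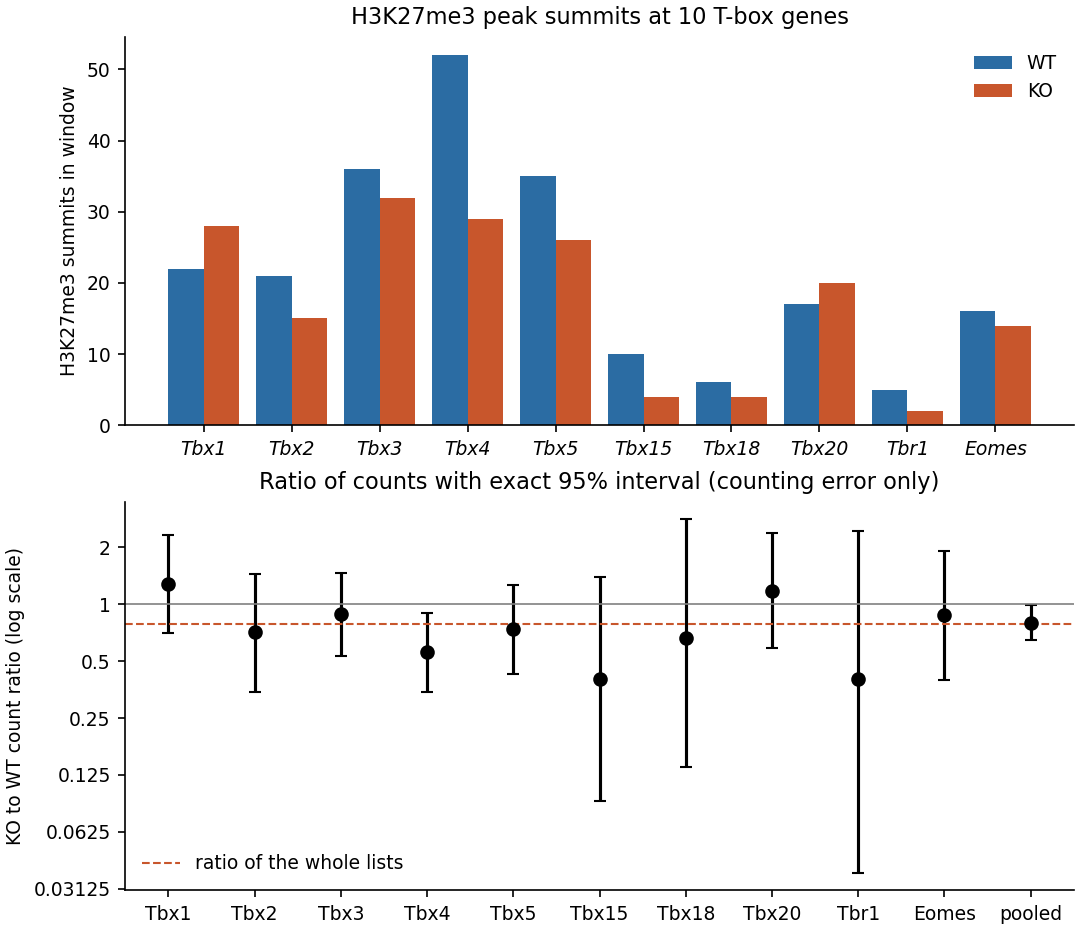
Upper panel, H3K27me3 summits in the window of each gene in WT (blue) and KO (orange) cells, 1 library each. Lower panel, KO to WT ratio of these counts on a log axis with its exact 95% interval and the ratio of the whole lists as a dashed line; the interval of Tbx4, 0.341 to 0.895, lies below 1, and the pooled ratio of 0.797 lies on the dashed line.

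The counts over all protein-coding genes place the members against the genome. Tbx1 and Tbx20 lay above the line of equal counts, Tbx4 lay farthest below it, and the other 7 genes lay between.

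**Figure D3:**
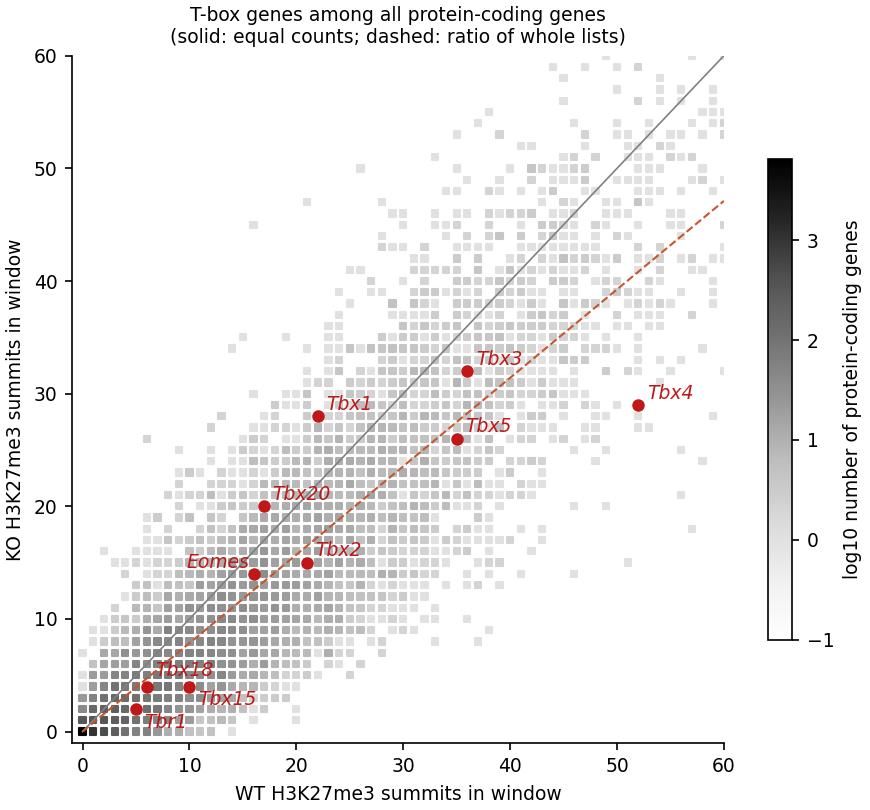
WT against KO H3K27me3 summit counts of all protein-coding genes (grey squares, darker for more genes on a log10 scale; genes beyond the axes are not drawn), with the 10 T-box genes in red. Tbx1 with 22 WT and 28 KO summits and Tbx20 with 17 and 20 lie above the line of equal counts, and Tbx4 with 52 and 29 lies below the dashed ratio of the whole lists.

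Positions of the mark were also compared. Of the 202 WT summits, 116 had a KO summit within 1 kb (57.4%, 50.5 to 64.0), against 54.4% of the whole WT list. In the other direction 114 of 161 KO summits had a WT summit (70.8%, 63.4 to 77.3), against 68.3% of the whole KO list. By gene, the share of WT summits with a KO partner ran from 40% at Tbr1, with 5 summits, to 72.7% at Tbx1. At the 5 genes with a WT summit of at least 10, the strongest summits of the genotypes lay 54 bp apart at Tbx20, 316 bp at Eomes, 430 bp at Tbx3, 1651 bp at Tbx1 and 1996 bp at Tbx5. Among the genes with no WT summit of that strength, they lay 188 bp apart at Tbr1 and 483 bp at Tbx18. At Tbx2, Tbx4 and Tbx15 they lay more than 5 kb apart.

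At gene starts, H3K27me3 was found within 2 kb of the outermost annotated start of 6 genes in WT cells, against 23.4% of all protein-coding genes, and of 6 in KO cells, against 19.8%. These were Tbx2, Tbx3, Tbx4, Tbx15, Tbx20 and Eomes in both genotypes. With a distance of 5 kb the number was 9 in each genotype, and Tbx18 was the exception. The share of all protein-coding genes at 5 kb was not computed, so that number has no background.

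To show the DNA beneath, promoters were taken from RefSeq (GRCm38), from 250 bases before to 50 after a start, printed 5′ to 3′ in the direction of transcription with each CpG in capitals. The table held 7 promoters of 6 of the genes. Polycomb is known to gather at CpG-rich starts, which is why CpGs are marked. Eomes and Tbx4 stand for the genes with the most H3K27me3 summits within 2 kb of the outermost GENCODE start among those with an entry (2 in WT cells). Tbx18, Tbx1 and Tbr1 had none there, and Tbx20, chosen after its values were seen, had its strongest summit almost on the start. The printed RefSeq starts of Tbx4 and Tbr1 lie inside the gene as GENCODE annotates it, so these counts do not refer to them.

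Eomes, chr9:118477939-118478238, + strand: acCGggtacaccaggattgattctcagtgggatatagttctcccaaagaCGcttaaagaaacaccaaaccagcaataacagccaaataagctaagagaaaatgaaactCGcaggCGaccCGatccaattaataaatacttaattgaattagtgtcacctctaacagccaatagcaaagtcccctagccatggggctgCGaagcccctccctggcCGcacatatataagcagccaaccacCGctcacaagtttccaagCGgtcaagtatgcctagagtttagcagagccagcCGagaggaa
Tbx4, chr11:85896515-85896814, + strand: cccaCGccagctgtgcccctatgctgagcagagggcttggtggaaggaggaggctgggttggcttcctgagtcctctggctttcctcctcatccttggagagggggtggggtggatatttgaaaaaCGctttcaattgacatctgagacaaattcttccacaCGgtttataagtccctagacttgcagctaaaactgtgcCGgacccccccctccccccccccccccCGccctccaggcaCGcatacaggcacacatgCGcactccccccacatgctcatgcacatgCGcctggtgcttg
Tbx20, chr9:24774254-24774553, − strand: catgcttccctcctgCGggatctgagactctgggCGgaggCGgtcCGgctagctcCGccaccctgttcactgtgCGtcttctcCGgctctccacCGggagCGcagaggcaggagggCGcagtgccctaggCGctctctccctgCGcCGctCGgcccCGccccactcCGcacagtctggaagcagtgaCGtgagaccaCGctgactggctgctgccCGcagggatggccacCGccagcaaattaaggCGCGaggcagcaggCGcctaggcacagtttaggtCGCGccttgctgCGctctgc
Tbx18, chr9:87731211-87731510, − strand: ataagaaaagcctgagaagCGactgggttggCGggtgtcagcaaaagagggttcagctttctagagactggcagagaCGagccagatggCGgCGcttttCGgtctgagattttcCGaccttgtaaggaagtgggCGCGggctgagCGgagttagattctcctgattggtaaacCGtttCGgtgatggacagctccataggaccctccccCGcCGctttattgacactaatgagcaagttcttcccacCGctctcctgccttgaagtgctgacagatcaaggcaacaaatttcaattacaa
Tbx1, chr16:18590622-18590921, − strand: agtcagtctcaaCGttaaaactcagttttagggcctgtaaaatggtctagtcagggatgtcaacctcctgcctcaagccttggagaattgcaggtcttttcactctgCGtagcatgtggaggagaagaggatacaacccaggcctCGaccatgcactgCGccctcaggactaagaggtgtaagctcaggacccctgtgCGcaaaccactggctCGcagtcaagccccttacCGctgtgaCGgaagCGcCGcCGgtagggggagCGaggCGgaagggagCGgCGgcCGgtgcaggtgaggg
Tbr1, chr2:61804203-61804502, + strand: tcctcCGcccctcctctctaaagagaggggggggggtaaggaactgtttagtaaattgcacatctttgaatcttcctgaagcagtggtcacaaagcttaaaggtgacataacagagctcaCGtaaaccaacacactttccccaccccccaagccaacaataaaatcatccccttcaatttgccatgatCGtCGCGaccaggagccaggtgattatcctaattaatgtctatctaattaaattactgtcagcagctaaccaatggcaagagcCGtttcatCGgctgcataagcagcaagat

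The Tbx20 promoter held 26 CpGs and an observed to expected CpG ratio of 0.745, and its nearest WT H3K27me3 summit lay 301 bp from the RefSeq start with a strength of 17.8. The Tbx18 promoter held 15 CpGs at nearly the same ratio, 0.755, but its nearest WT summit lay 7963 bp away with a strength of 6.21. Eomes had 10 CpGs (ratio 0.607), Tbr1 7 (0.453), Tbx4 8 (0.314) and Tbx1 16 (0.633). The nearest WT summit lay 770 bp from the printed start at Tbr1, 1238 bp at Eomes, 2148 bp at Tbx1 and 5776 bp at Tbx4. Over the 7 promoters the median CpG ratio was 0.633, against 0.384 for all 32851 promoters in the table. The T-box site AGGTGTGA was searched on both strands and found in 0 of the 7 promoters, against 1.27% of all promoters, and its core GGTGTG in 0 of 7, against 19%.

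CpG content also rose with strength at the summits themselves. In the 250 bp on each side of the members' WT summits the median observed to expected CpG ratio was 0.175 for the 115 summits under 3 and 0.326 for the 10 summits of at least 10. In KO cells these medians were 0.208 for 79 summits and 0.489 for 11. The whole WT list gave 0.184 and 0.435, so the T-box windows had the order of the genome.

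The Tbx1 subfamily comprised Tbx1, Tbx15, Tbx18 and Tbx20. Tbx1, needed for the pharyngeal arches and the cardiac outflow tract, lies at chr16:18580979-18590671 on the − strand. It had 22 WT and 28 KO H3K27me3 summits, a ratio of 1.27 (0.702 to 2.33). Among them were the strongest summits of any of the 10 genes. In WT cells the strongest reached 33.7 at 4.91 kb downstream of the start, within an intron and among the top 0.112% of the list. In KO cells it reached 34.2 at 6.56 kb, within an exon and among the top 0.0395%. The strongest summit at Tbx1 thus ranked near the top of both lists.

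Upstream of Tbx1 20 WT and 23 KO summits were listed. The window also held the starts of 3 other protein-coding genes, Gp1bb, Gm49601 and Sept5, so its counts are not those of Tbx1 alone. Nearest to the Tbx1 start, a WT summit of 19.4 and a KO summit of 10.1 both lay 2.15 kb upstream. At a strength of at least 5, Tbx1 had 10 WT and 7 KO summits, so the direction of its difference turned with the threshold. Its CpG-rich start carried Ctcf with a strength of 24.7, 30 bp upstream, and no H3K27me3 within 2 kb.

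H3K9me3 at Tbx1 differed more than H3K27me3. WT cells had 14 H3K9me3 summits, 10 of them upstream, and KO cells had 1, a ratio of 0.0714 (0.00169 to 0.469). These counts too are those of the window with its neighbouring genes. None of the 14 had a KO summit within 1 kb. The strongest of the 14 had a strength of 3.97 and the KO summit 3.11, so all were weak. On chromosome 16 as a whole the H3K9me3 lists were even, with 5849 WT and 5880 KO summits. Gene windows were not: of protein-coding genes with at least 10 summits, 57.4% were lower in KO cells by 1.5 times or more. Over the 9 stretches the H3K9me3 counts were 108 and 83, a ratio of 0.769 (0.570 to 1.03), against 0.938 for the whole lists, and without Tbx1 the ratio was 0.872.

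Across the 10 genes H3K9me3 was lower in number in KO cells at 6, against 64.0% of protein-coding genes with a summit. It was lower by 1.5 times or more at 3, Tbx1, Tbx2 and Tbx4, against 57.4%, and higher by that factor at 2, Tbx5 and Tbx18, against 12.8%. The calls of Tbx2 and Tbx4 are not separate, since their windows overlap by 55.53 kb and shared most of their WT H3K9me3 summits. The median over all protein-coding genes fell from 7.65 to 4.32 H3K9me3 summits per 100 kb, and that over the 10 genes from 7.83 to 6.15. Of the 108 WT H3K9me3 summits 30.6% (22.7 to 39.8) had a KO summit within 1 kb, close to the 31.1% of the whole list. By gene, 9 of the 16 WT summits at Tbr1 and 5 of the 9 at Tbx5 had such a partner, against 0 of 14 at Tbx1.

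Tbx20, a regulator of cardiomyocytes and heart chambers, lies at chr9:24718138-24774303 on the − strand. It had 17 WT and 20 KO H3K27me3 summits, a ratio of 1.18 (0.585 to 2.39). The strongest summits stood in the first part of the gene, in an exon, with 17.8 at 301 bp in WT and 14.8 at 247 bp in KO cells. Among the 10 genes Tbx20 was the one whose strongest summit lay nearest its start. A further site lay beyond the far end of the gene, with 8.45 at 78273 bp from the start in WT and 9.38 at 77968 bp in KO cells. Arid1a and Brg1 each had 1 summit in its window, of 3.33 and 2.0, at 3.24 and 2.19 kb into the gene.

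Tbx18, which acts in the sinoatrial node, the epicardium and the ureter, lies at chr9:87702800-87731260 on the − strand. It had 6 WT and 4 KO H3K27me3 summits, all upstream of the gene. The strongest, listed at 6.21 in WT and 6.3 in KO cells, ranked among the top 7.11% and 6.65% of their lists and lay 7.96 and 8.45 kb upstream in an exon of the neighbouring gene Gm37374. No summit of the mark fell in the gene body. Tbx18 was the 1 gene of 10 with Arid1a within 2 kb of its start, against 35.2% of all protein-coding genes, with summits of 2.38 and 2.67. It also had Brg1 of 3.16, Ctcf of 20.9 and Rad21 of 7.06 within 2 kb of the start. An Arid1a summit of 5.44, among the top 1.85% of that list, lay 7819 bp upstream, in the same exon as the strongest H3K27me3 summits.

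Tbx15, a regulator of mesenchyme in the skeleton, fat and skin, lies at chr3:99240381-99354259 on the + strand. Its 10 WT H3K27me3 summits lay in 1 string of 18.3 kb, in which neighbouring summits were at most 5 kb apart, from 2.09 kb upstream to 16.2 kb into the gene, and the rest of its 113879 bp body had none. KO cells had 4 summits, each with a WT summit within 1 kb, and the ratio was 0.40 (0.0916 to 1.39). The mark was weak, with strongest summits of 4.08 in WT and 3.38 in KO cells, and at a strength of at least 5 neither genotype had any. Just upstream of the string, 6.24 kb from the start, stood the strongest Ctcf summit of the window at 29.2, with Rad21 of 25.6 at 40 bp from it.

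**Figure D4:**
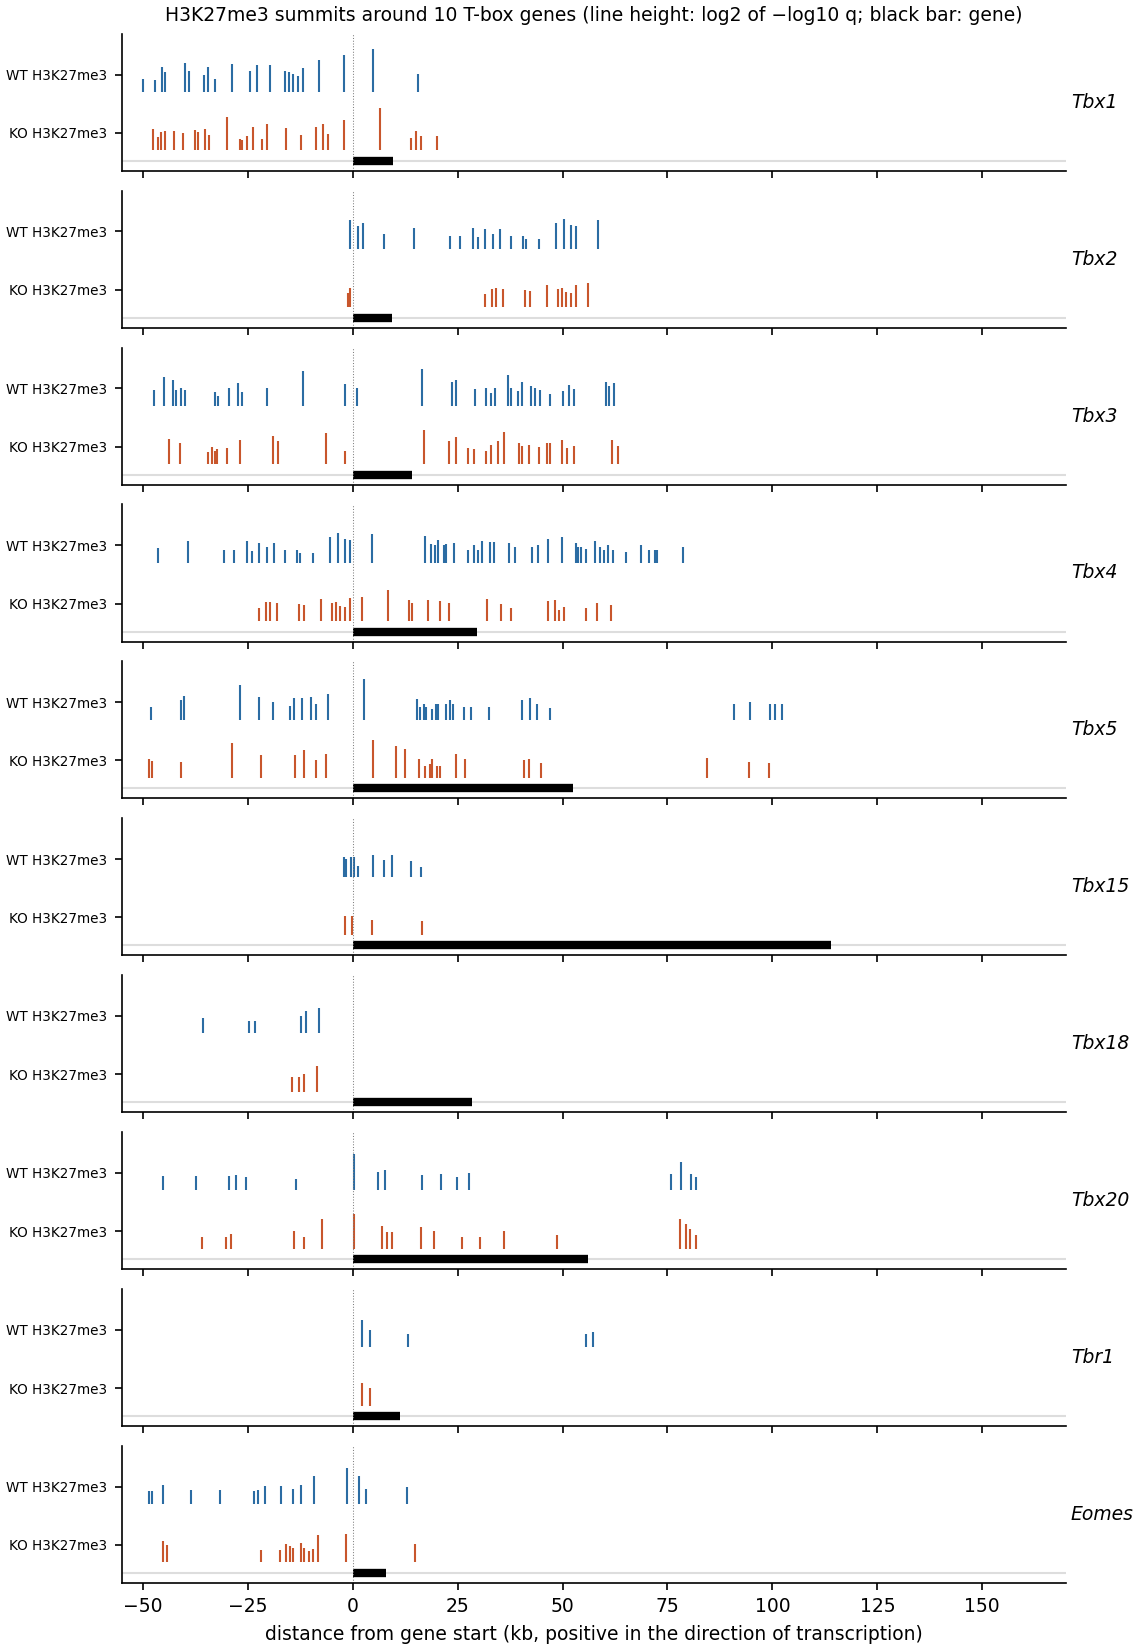
H3K27me3 summits around each T-box gene in WT (blue) and KO (orange) cells against the distance from the gene's outermost start in kb, positive in the direction of transcription. The height of a line is log2 of the −log10 q-value and the black bar is the gene. At Tbx15 all summits lie from 2.09 kb upstream to 16518 bp into the gene, at Tbx18 all lie upstream, and Tbx4 has 52 WT lines against 29 KO lines.

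The Tbx2 subfamily comprised Tbx2, Tbx3, Tbx4 and Tbx5. Tbx2, a repressor in heart, limb and lung development, and Tbx4, a regulator of hindlimb and lung mesenchyme, are neighbours on chromosome 11, at chr11:85832551-85841948 and chr11:85886422-85916097 on the + strand, with 44473 bp between them. Tbx2 had 21 WT and 15 KO H3K27me3 summits, a ratio of 0.714 (0.343 to 1.45). Of these, 17 WT and 13 KO summits lay downstream of Tbx2, towards Tbx4, and the 2 windows shared 18 WT and 13 KO summits. The mark of Tbx2 was thus largely that of the interval between the genes. Its body had 3 WT and 0 KO summits.

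In WT cells a summit of 8.72 stood 555 bp upstream of the Tbx2 start, and 1 of 6.21 lay 2505 bp into the gene. The Tbx2 start itself carried Ctcf of 11.3 at 169 bp upstream. At a strength of at least 5 Tbx2 had 6 WT summits and 1 KO summit. The KO summit of 5.52 lay 2136 bp inside Tbx4, in an intron.

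With all listed summits Tbx4 had the largest difference in number among the 10 genes. With lists of equal size it had 37 WT and 29 KO summits, and Tbx1, with 19 and 28, differed by more in the other direction. Upstream of the gene 17 WT and 12 KO summits were counted, in its body 10 and 7, and downstream 25 and 10. The downstream flank thus held most of the difference. On chromosome 11 as a whole the H3K27me3 ratio was 0.82, which the interval of the 0.558 of Tbx4 (0.341 to 0.895) still held. At a strength of at least 5 the counts were 7 and 2. Yet the strongest summit of the window was 9.44 in WT, 3.56 kb upstream in the interval, and 10.7 in KO cells, 8.47 kb into the gene. This KO summit lay 1872 bp from the RefSeq start printed above, which is inside the gene as GENCODE annotates it. H3K9me3 at Tbx4 was 20 in WT and 8 in KO cells, a ratio of 0.40 (0.152 to 0.948), on a chromosome with a ratio of 0.649.

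The interval between Tbx2 and Tbx4 also held the strongest Ctcf summit of the 10 genes. It reached 77.2, 16.8 kb from the Tbx2 start, with a Rad21 summit of 55.3 at 36 bp from it, among the top 0.481% of the Rad21 list. A further Ctcf summit of 68.7 lay just beyond the end of Tbx2. Most H3K27me3 summits of the interval lay on the Tbx4 side of both.

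Tbx3, a repressor at work in limb, mammary gland and liver development, lies at chr5:119670669-119684724 on the + strand. It had 36 WT and 32 KO H3K27me3 summits, a ratio of 0.889 (0.535 to 1.47), and 9 summits of at least 5 in each genotype. The strongest were 18.8 in WT and 14.5 in KO cells, 16.6 and 17.0 kb from the start in an intron of Tbx3os2, a gene for a noncoding RNA. The gene body had 1 WT and 0 KO summits, so the mark flanked the gene. Between the flanks the start carried Ctcf of 22.6 at 18 bp and Rad21 of 35.8 at 83 bp upstream, and Brg1 of 3.24 at 412 bp upstream.

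Tbx5, which directs heart and forelimb formation, lies at chr5:119832668-119885219 on the + strand, 147.9 kb beyond Tbx3. It had 35 WT and 26 KO H3K27me3 summits, a ratio of 0.743 (0.429 to 1.27). Unlike Tbx3 it carried the mark across the gene, with 18 WT and 14 KO summits in the body. The strongest were 27.5 at 2.72 kb in WT and 21.0 at 4.71 kb in KO cells, both in an intron and among the top 0.239% and 0.303% of their lists. Further strong summits, 16.0 in WT and 15.8 in KO cells, lay 26879 and 28811 bp upstream. At a strength of at least 5 Tbx5 had 4 WT and 7 KO summits, so here too the direction turned with the threshold.

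Tbx5 was the 1 gene of 10 without any Arid1a or Brg1 summit in its window, against 11.1% of all protein-coding genes. It was also the gene with the least Ctcf, 2 summits of at most 2.72, and its 1 Rad21 summit had a strength of 2.71. H3K9me3 had 9 WT and 14 KO summits there.

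The Tbr1 subfamily comprised Tbr1 and Eomes. Tbr1, a factor of cortical projection neurons, lies at chr2:61802930-61814114 on the + strand. It had the least H3K27me3, with 5 WT and 2 KO summits, a ratio of 0.40 (0.0381 to 2.44). In both genotypes 2 of them lay in the gene body. The strongest, 6.97 in WT and 4.77 in KO cells, lay in an exon 188 bp apart. They were 770 and 582 bp from the RefSeq start printed above, which lies inside the gene as GENCODE annotates it.

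Tbr1 also carried H3K9me3. It had 16 summits of this mark in each genotype, fewer in WT cells than Tbx4 with 20 and Tbx2 with 19 and the most of the 10 genes in KO cells, of which 6 in WT and 5 in KO cells lay in the gene body. The strongest H3K9me3 summit of all 10 genes, 10.4 in WT cells and among the top 0.189% of that list, lay in an exon 8.97 kb from the start. In KO cells a summit of 6.80 lay 297 bp from it. The window of Tbr1 was also richest in the remodeller, with 16 Brg1 and 8 Arid1a summits. Of these, 10 and 6 lay upstream, and 1 and 2 in the gene body. All were weak, at most 5.96 and 3.33. The Brg1 summit of 5.96 lay 17119 bp upstream, and an Arid1a summit of 3.33 lay 47033 bp upstream. Both fell in an intron of the neighbouring gene Psmd14, so the count of the window is not that of Tbr1 alone.

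Eomes, needed for mesendoderm, for cytotoxic lymphocytes and for intermediate progenitors of the cortex, lies at chr9:118478212-118486132 on the + strand. It had 16 WT and 14 KO H3K27me3 summits, a ratio of 0.875 (0.396 to 1.91), of which 13 in each genotype lay upstream. The strongest summit differed in rank between the lists. It was 18 in WT cells, 1.26 kb upstream and among the top 0.728% of the list, and 7.99 in KO cells, 1.58 kb upstream and among the top 3.36%. A WT summit of 7.77 in the gene body, 1559 bp from the start, had no KO counterpart in the body, where KO cells had 0 summits. Ctcf of 17.2 and Rad21 of 10.1 lay 985 and 1055 bp into the gene.

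Finally, the factors profiled in WT cells were placed around the genes. Arid1a was found at 8 and Brg1 at 9 of the 10 windows, against 18174 and 18333 of all 21938 protein-coding genes. Their medians were 2.03 and 1.85 summits per 100 kb, against 3.45 and 4.0 for all protein-coding genes. Brg1 lay within 2 kb of the start of 4 genes, Tbx3, Tbx18, Tbr1 and Eomes, against 39.6% of all protein-coding genes. No Arid1a or Brg1 summit in the windows reached a strength of 10. Such summits were rare everywhere, at 266 and 409 of all 21938 protein-coding genes. Of the 32 Arid1a summits 21.9% (11 to 38.8) had a WT H3K27me3 summit within 1 kb, against 4.07% of the whole list, and of the 40 Brg1 summits 15.0% (7.06 to 29.1), against 3.53%. The windows held more H3K27me3 per length than the genome, and the part of that density in these shares was not tested.

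Ctcf and Rad21 had medians of 5.97 and 6.2 summits per 100 kb, against 6.45 and 6.71. Ctcf lay within 2 kb of the start at 5 genes, against 42.5% of all protein-coding genes, and Rad21 at 6, against 50.6%. At Tbx1, Tbx2, Tbx3, Tbx18 and Eomes the start summit of Ctcf had a strength of at least 10, which 17.5% of all protein-coding genes had. The strongest Ctcf summit per window ran from 2.72 at Tbx5 to 77.2 at Tbx2 and Tbx4, and at the other 7 genes it lay between 20.9 at Tbx18 and 76.8 at Tbx1. A Rad21 summit stood 1 to 92 bp from it at all genes except Tbx5, where the nearest was 6999 bp away. For other protein-coding genes this distance was not computed. With all Ctcf summits of the windows, 51.5% had Rad21 within 1 kb, against 55.7% of the whole list. Of the 68 Ctcf summits in the windows 44.1% (32.9 to 55.9) had H3K27me3 within 1 kb, against 12.5% of the whole list. As with Arid1a and Brg1, the part of the higher H3K27me3 density of the windows in this share was not tested.

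**Figure D5:**
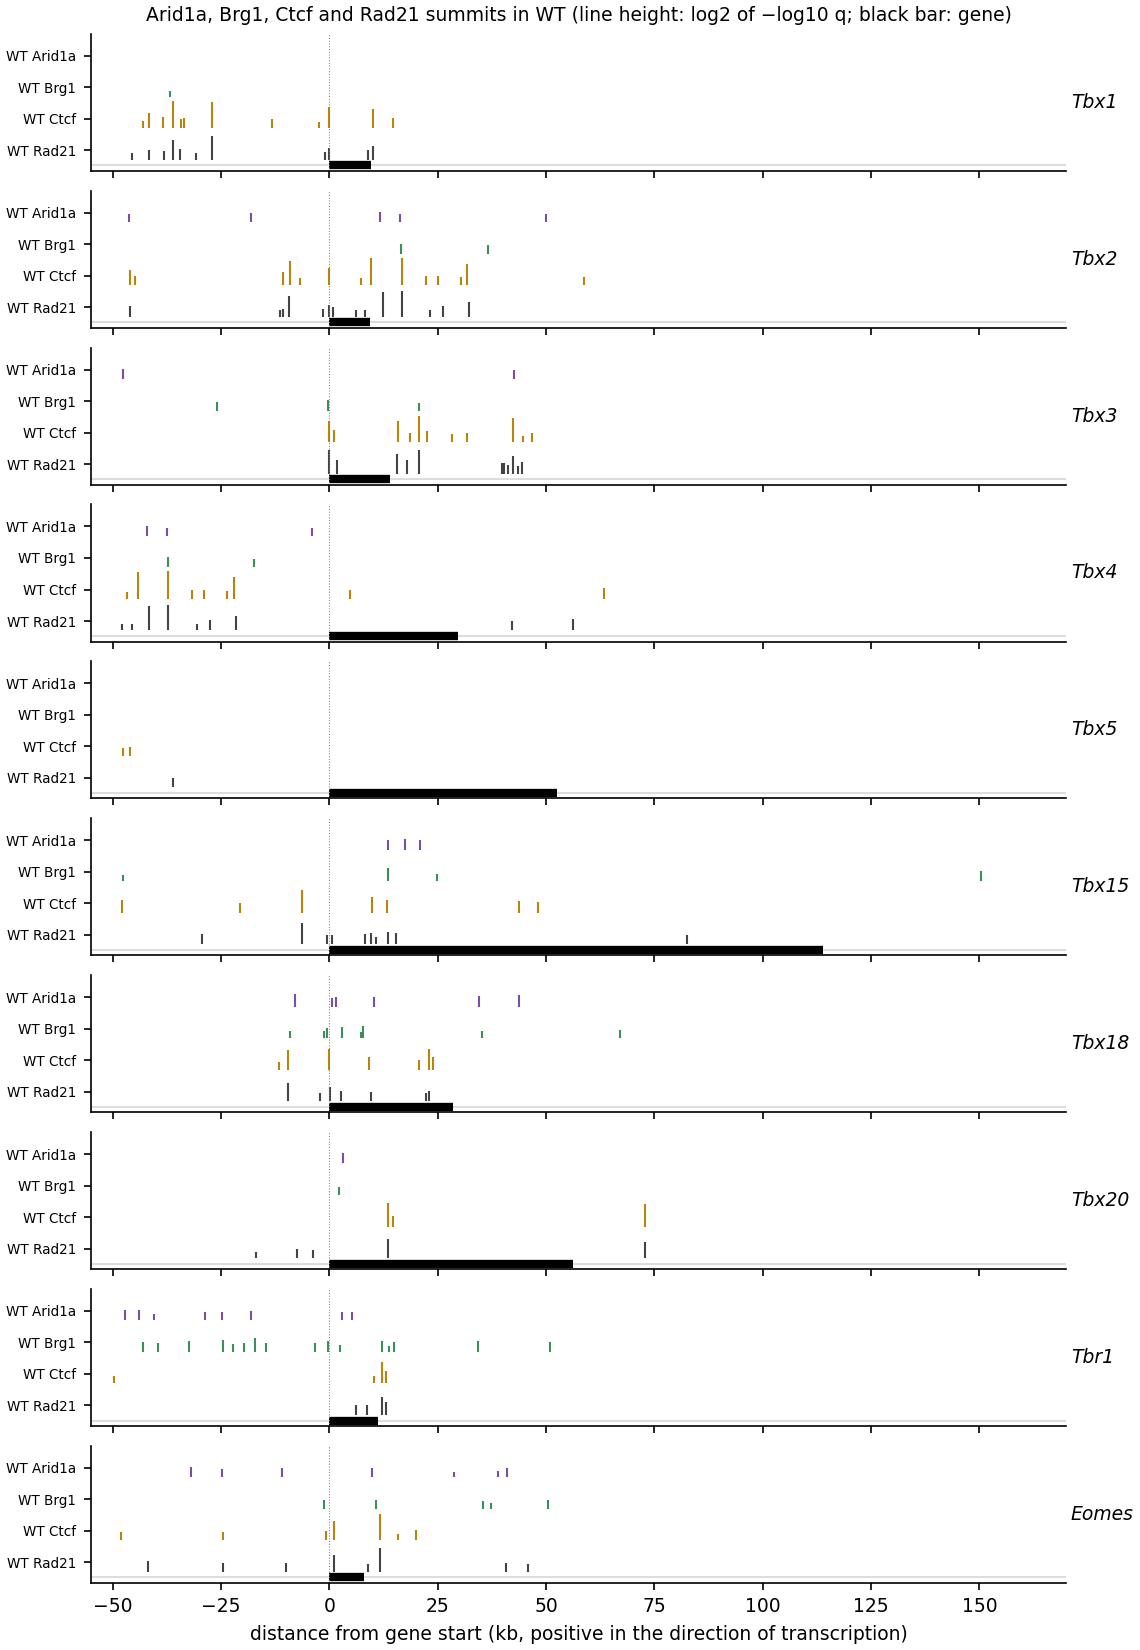
Arid1a, Brg1, Ctcf and Rad21 summits in WT cells around each T-box gene against the distance from the gene's outermost start in kb, positive in the direction of transcription. The height of a line is log2 of the −log10 q-value and the black bar is the gene. Tbx5 has no Arid1a or Brg1 line, Tbr1 has 16 Brg1 lines, and the strongest Ctcf lines coincide with Rad21 lines at the other genes.

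The Ctcf consensus, a motif of 12 bases searched on both strands with at most 1 mismatch within 50 bp of the summit, was found at 9 of the 22 separate Ctcf summits of at least 10. The share was 50.3% over all 24822 Ctcf summits of that strength and 1.09% at positions moved by 2 kb. The reference DNA (GRCm38, + strand) is shown for 5 of the genes whose strongest Ctcf summit held a match, 40 bases each with the match in capitals, since these are the most strongly occupied Ctcf positions of their windows.

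Tbx2 and Tbx4, chr11:85849256-85849295: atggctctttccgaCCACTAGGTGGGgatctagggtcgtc
Tbx3, chr5:119691310-119691349: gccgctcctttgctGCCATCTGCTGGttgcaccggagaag
Tbr1, chr2:61815086-61815125: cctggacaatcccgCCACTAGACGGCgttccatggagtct
Eomes, chr9:118489839-118489878: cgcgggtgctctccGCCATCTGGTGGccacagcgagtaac

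Tbx3 and Eomes matched without a mismatch, on the − strand, at summits of 54.1 and 62.2. The sites at Tbx2 and Tbx4 and at Tbr1 matched with 1 mismatch, on the + strand. At Tbx15, Tbx18 and Tbx20 the strongest Ctcf summit had no match within these limits.

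To find the genes most like the T-box genes in all 8 lists, the log2 of summits per 100 kb plus 1 was compared with the median of the 10 members. The 5 nearest protein-coding genes with windows apart from theirs were Repin1, Gja5, Hrasls5, Arhgap40 and Lpin3, at Euclidean distances of 0.556 to 0.682. Repin1 had 18 WT and 15 KO H3K27me3 summits. The members themselves lay farther from their own median, from 1.69 at Tbx3 to 4.37 at Tbr1, and 45.2% of all protein-coding genes were nearer to it than Tbr1. For Tbx3, the member nearest to the median, that share was 4.25%. The 5 genes named first were picked for their small distance, so their nearness is no finding.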

How the data were processed

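ChIP-seq peak lists of 8 AB17 libraries were used, 1 per antibody and genotype. The 2 input libraries entered only through the authors' peak calling and were not analysed here. According to the study's methods and the submitters' processing notes, the authors aligned reads to mm10 with Bowtie2, filtered them with SAMtools, used Picard against duplicates and ran MACS2 against the corresponding input. Their versions are not given in the sources used here. Each deposited list gave a summit and a −log10 q-value, a unit read from the values, since the lists had no header. As it grows with depth, strengths set side by side for the genotypes are values as listed and not levels of a mark.

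All autosomes and both sex chromosomes were used, and 0 summits lay beyond a chromosome end of GRCm38. Genes were protein-coding genes of GENCODE vM21, and starts were their outermost starts. The named genes were the 10 members, the 7 other T-box genes and the 5 protein-coding genes with the most similar densities, beside Pax1 to Pax9. The members and lists were chosen with earlier results of these data known. Gene calls needed at least 10 summits and a ratio of 1.5. Counting was tested on simulated summits. Python 3.11.15, numpy 2.4.6, pandas 2.3.3, scipy 1.17.1, pysam 0.24.0 and samtools were used. Alternatives changed the threshold, list size, window, merging and distances. Results that need items withheld here are not reported.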

Additional observations from a re-analysis of the deposited data

How the results depend on the processing

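With 1 library per group, unknown depth and summits that are not independent, these values have no error between samples. The pooled H3K27me3 ratio ran from 0.739 to 0.863 when each gene was left out in turn, a setting added after seeing the data, and from 0.809 to 0.943 over the other settings, except 0.994 with an equal number of the strongest peaks. The pooled H3K9me3 ratio ran from 0.697 to 0.872 over the genes left out. It was 0.579 with a window of 10 kb and 1.0 at a strength of at least 5, both within the interval of the main value. The share of WT summits with a KO partner was 33.3% at a strength of at least 5, 38.5% after merging summits within 3 kb, 37.6% within 500 bp and 77.7% within 2 kb. The KO share was 54.9% at a strength of at least 3, 40.6% at 5, 62.7% with equal lists, 44.8% after merging, 46.6% within 500 bp and 89.4% within 2 kb. Genes with a lower KO count numbered 5 at strengths of at least 3 or 5 and with equal lists, and summits of at least 5 lay at 4 gene starts in WT and 2 in KO cells. The cause was not tested, beyond the smaller number of summits that a threshold leaves. Of 59 recomputed single-gene ratios, 54 stayed within the interval of the main value. The other 5 arose at a strength of at least 5, with 0.70 at Tbx1, 0.167 at Tbx2, 0.286 at Tbx4, 1.75 at Tbx5 and 0 at Tbr1. Directions turned there at Tbx1 and Tbx5, and within the interval at a strength of at least 3 (Tbx1 0.875, Tbx3 1.27, Tbx5 1.15), after merging (Tbx1 0.818, Tbx5 1.08), with a window of 100 kb (Tbx1 0.932) and with equal lists (Tbx2 1.07, Eomes 1.08). Tbx4 was no longer past 1.5 times with equal lists (0.784), at a strength of at least 3 (0.727), with a window of 10 kb (0.762) and after merging (0.733). Of the other genes past it, Tbx15 was at 1.0 after merging and Tbx18 at 1.0 with equal lists, with a window of 10 kb and at a strength of at least 5, and at 0.833 with a window of 100 kb. No paired analysis was possible because each group holds 1 library.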

Other observations

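The other T-box genes, Tbx6, Tbx10, Tbx19, Tbx21, Tbx22, T and Mga, had 108 WT and 79 KO H3K27me3 summits in 7 windows, a ratio of 0.732 (0.540 to 0.987). T, the founding member of the family and a regulator of mesoderm, was the most densely marked, with 36 WT and 29 KO summits, and 28 of its 36 WT summits had a KO summit within 1 kb. Its strongest summits were 22.2 in WT and 12.2 in KO cells. Tbx19, which acts in the pituitary, had 17 WT and 6 KO summits, a ratio of 0.353 (0.114 to 0.938). Tbx21, the T-bet factor of T helper cells, had 19 and 13, with strongest summits of 24.9 and 15.5. Its H3K9me3 counts were 19 in WT and 4 in KO cells, and those of Tbx10 were 20 and 5. Mga, a large T-box protein that is widely expressed, had 7 and 8 H3K27me3 summits and the most Arid1a and Brg1 of these genes, 19 and 23 summits. No summit of Arid1a, Brg1, Ctcf or Rad21 was listed at Tbx22, which had 1 WT and 3 KO H3K27me3 summits.

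Set beside another developmental family, the 10 T-box genes had a ratio of H3K27me3 counts of 0.797 (0.644 to 0.985) and Pax1 to Pax9, with 245 WT and 256 KO summits, 1.05 (0.874 to 1.25). The intervals overlap, and the difference between the families was not tested. H3K9me3 was lower in number in KO cells in both, with 128 and 62 summits at Pax1 to Pax9 and 108 and 83 at the 10 T-box genes.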
